A study of Ovis aries with 6 samples.

Results

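The 200 genes that took the largest share of sequencing counts in untreated sheep rumen epithelial (RE) cells were examined, together with their levels after sodium butyrate (SB). Members were chosen from the 26478 Ensembl sheep gene identifiers of a table of 27452 identifiers. Counts were converted to CPM (the count divided by the total of the library and multiplied by 1000000), CPM was averaged over the 3 untreated samples (Con), and the 200 highest identifiers were kept. SB samples were not used in this choice. All 200 members passed the filter on low counts, so none was left out of any result. RNA was sequenced in 6 samples, 3 of Con and 3 of SB. Both groups were wild-type primary RE cells of Ovis aries, isolated from the rumen of newborn Hu lambs and grown in the same medium with low serum and added growth factors and hormones. SB samples received 1 µM of the compound for 24 h, whereas Con received no treatment. The sample titles name the 3 Con samples as controls for SB. In the study's supplement, however, the names of the 3 control columns are listed for untreated cells of a separate experiment. If the columns hold those samples, each difference between SB and Con is also one between 2 experiments, and treatment and experiment cannot be told apart. Cells were grown in triplicate wells, so the spread between samples is at least that between wells, and no source used here says that the wells came from different animals.

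Neither the count table nor the RefSeq gene table used here pairs these identifiers with gene symbols. Of the 200 members, 0 matched an entry of the RefSeq table. Members are therefore given by their rank in Con, where rank 1 is the highest, and no function, position or sequence is given for any of them. For the same reason, the labelled cell type could not be checked against its markers.

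The rumen epithelium is a stratified squamous lining that absorbs short-chain fatty acids made by rumen microbes and turns much of the butyrate into ketone bodies. Butyrate is a fuel for these cells and, in many cell types, an inhibitor of histone deacetylases, the enzymes that remove acetyl groups from histones. In cultured epithelial cells the most abundant messenger RNAs commonly encode keratins, actins, ribosomal proteins, translation factors and enzymes of glycolysis, although no member is assigned to these classes here. Because a small number of transcripts fills a large part of a library, their levels also bear on how the other genes are scaled.

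The total count per sample was between 15869476 and 16582791 in Con and between 16888522 and 18152857 in SB. The lowest count of any member in any sample was 6946 and the highest was 660888. Counting error of a single member was therefore small, with a median coefficient of variation (CV, the SD as a percentage of the mean) of 0.735% in Con and 0.704% in SB from counting alone. Ranks compare shares of counts, not numbers of transcript copies, since a long transcript yields more fragments than a short one and transcript lengths were not used here.

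Members took a larger part of the library in SB than in Con. They held 35.9%, 36.5% and 36.4% of all counts in Con replicates 1, 2 and 3, and 39.2%, 39.3% and 40.0% in SB replicates 1, 2 and 3. Every SB sample lay above every Con sample. Con averaged 36.3 ± 0.310% and SB averaged 39.5 ± 0.415% (SD, n = 3), which differ by 3.25 percentage points (two-sided exact permutation p = 0.1, the smallest value that 3 samples against 3 can give). The Con samples also chose the members, a choice that favours genes read high in Con. When the 200 identifiers were chosen from 1 Con sample alone, the 2 Con samples not used held 35.9% to 36.5% over the 3 such choices, and the SB samples held 39.1% to 40.0%.

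**Figure D1:**
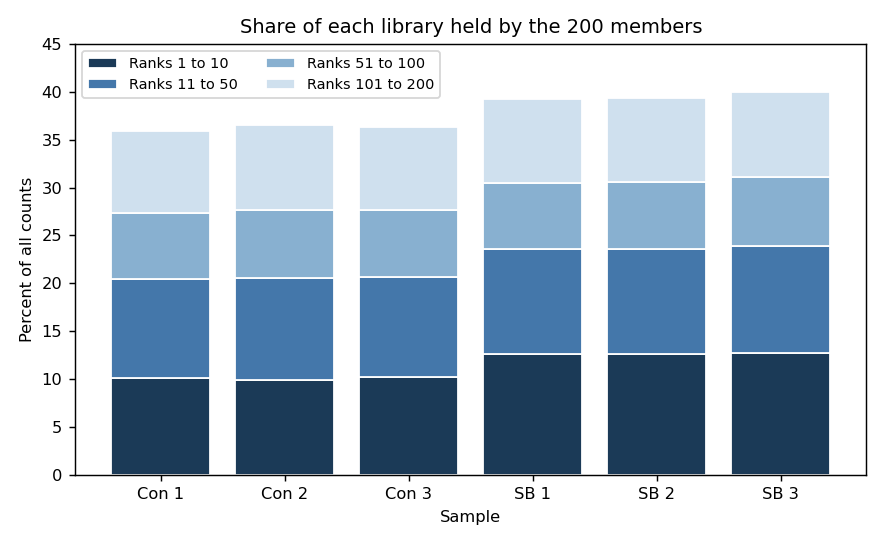
Percentage of all counts held by the 200 members in each of the 6 samples, stacked by rank in Con. The 3 SB bars reach 39.2% to 40.0%, above the 35.9% to 36.5% of the 3 Con bars, and most of the added height lies in ranks 1 to 10.

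The gain was concentrated at the top of the list. Ranks 1 to 10 held 10.1%, 9.90% and 10.2% of counts in the Con samples and 12.6%, 12.6% and 12.7% in the SB samples. The groups did not overlap, and the mean difference of 2.59 percentage points made up 79.8% of the net gain of all members. Ranks 11 to 50 held 10.3%, 10.7% and 10.5% in Con and 10.9%, 11.0% and 11.2% in SB, again without overlap. Con averaged 7.01 ± 0.112% and SB 7.06 ± 0.121% for ranks 51 to 100 (SD, n = 3, p = 0.7 by the exact permutation test), and 8.71 ± 0.146% and 8.77 ± 0.0813% for ranks 101 to 200 (SD, n = 3, p = 0.6 by the same exact test). The differences in these lower bands were within the spread between samples. The same Con samples set all these bands, as they set the members.

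Gains and losses of single members were of unequal size. Mean CPM was higher in SB for 99 members and lower for 101. The 99 members gained 5.29 percentage points of the library in all, and the 101 members had a summed change of -2.04 percentage points. Ranks 1, 2 and 7 gained 1.16, 0.836 and 0.497 percentage points, which together equal 76.8% of the net gain. Without these 3 members the net gain was 0.753 percentage points. The largest losses were those of rank 4, with a change of -0.130 percentage points, and rank 17, with -0.126. In the library as a whole, 546, 529 and 535 identifiers were needed to reach 50% of the counts in the Con samples, but 422, 420 and 400 in the SB samples. A smaller set of genes thus filled the same part of each SB library.

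The response of each member was tested in the fit over all 13103 identifiers with enough counts, using DESeq2 with median-of-ratios size factors. A member was called when its adjusted p-value was under 0.05. In this fit 109 members rose, 23 fell and 68 were not called. Of all tested identifiers, 22.0% were called higher and 20.5% lower in SB. Members were thus called higher in 54.5% and lower in 11.5%. The standard error of the log2 fold change of SB over Con (log2FC) had a median of 0.06 in members and 0.13 in all tested identifiers, so a change of a given size was more readily called in members. Members had a median log2FC of 0.19 and all tested identifiers one of -0.01, and 154 members had a positive log2FC, a sign found in 49.1% of all tested identifiers. The normalised counts, which are counts divided by the size factor, of the 3 SB samples lay above those of all 3 Con samples in 114 members and below them in 20. In all tested identifiers the groups were apart in this way in 26.7% and 25.7%.

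Which members were called higher or lower depended on how the libraries were scaled. Total-count scaling, which divides by the library total as CPM does, shifted the median over all tested identifiers by -0.20 (log2). With this scaling 59 members were called higher and 59 lower (DESeq2), where 10.4% and 36.6% of all tested identifiers were called. The median of the members was then -0.0068, beside -0.21 for all tested identifiers. The 59 members called higher had also been called higher with median-of-ratios size factors. All 23 members called lower with those size factors were called lower with total-count scaling too, and 0 members were called in opposite directions. Since total-count scaling moved values downward, these overlaps follow largely from the scaling. Of the 109 members that rose, 50 were not called with total-count scaling. A rise of these 50 therefore holds only relative to the median gene and was not called as a share of the library.

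**Figure D2:**
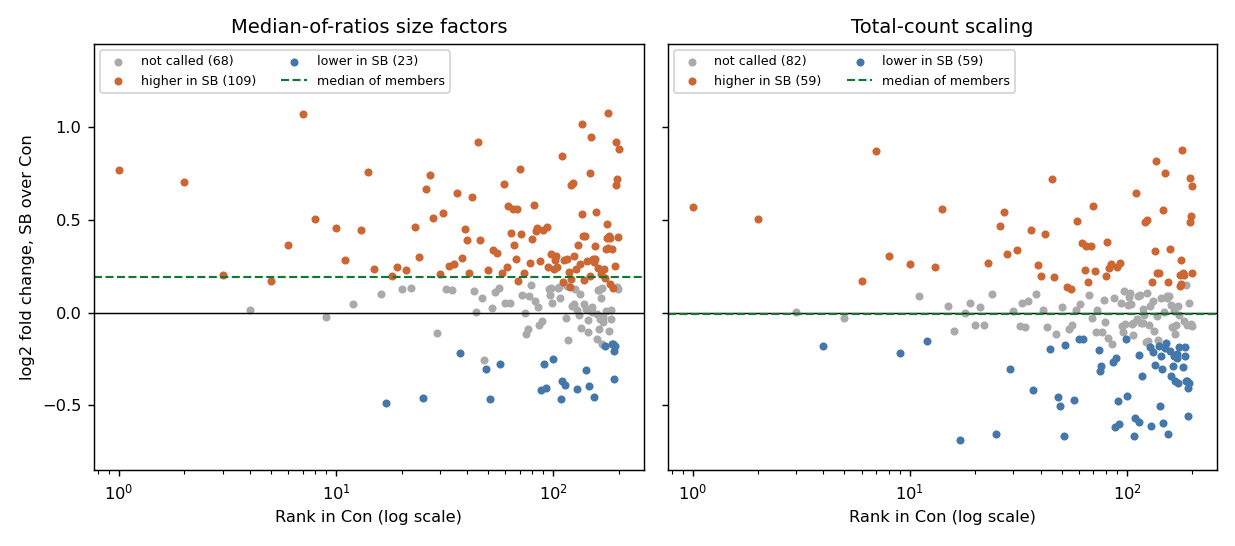
The log2FC of SB over Con for each member (points) by rank in Con on a log axis, with median-of-ratios size factors on the left and total-count scaling on the right, coloured by call. The dashed line is the median of the members, 0.19 on the left and -0.0068 on the right, and the counts of members called higher and lower change from 109 and 23 to 59 and 59.

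Changes were modest in size. The log2FC of members ranged from -0.49 to 1.08. Of the 200 members, 102 (51.0%) lay within 0.25 of 0, a range that held 43.8% of all tested identifiers. That range held 50.5% at ranks 201 to 400, 49.8% at 401 to 1000 and 56.5% at 1001 to 3000. Changes this small were therefore not particular to members. A log2FC over 0.5 was found in 31 members (15.5%, beside 11.1% of all tested identifiers). One under -0.5 was found in 0 members, beside 14.7% of all tested identifiers. In the same bands below the members it was found in 4.5%, 3.17% and 4.9%, also well under the 14.7%. Called members had a median absolute log2FC of 0.36, and the smallest that was called was 0.13. With the added threshold of a log2FC over 1, 3 members were called higher, where 3.08% of all tested identifiers were. With a log2FC under -1, 0 members were called lower, where 1.79% of all tested identifiers were (DESeq2). Of the 23 members that fell, the median log2FC was -0.36, and in edgeR the count under -1 was also 0, where 2.05% of all tested identifiers were called.

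The 10 highest members, which held 27.7% of the counts of all members in Con, mostly rose. Of these, 8 were called higher, 0 were called lower, and their median log2FC was 0.41. Of all tested identifiers 22.0% were called higher and 20.5% lower. With total-count scaling 6 of the 10 were called higher and 2 lower, beside 10.4% and 36.6% of all tested identifiers. The member at rank 1 had 24237, 23013 and 24416 CPM in the Con samples and 34682, 35329 and 36407 CPM in the SB samples. The groups were far apart, and its mean share of the library was 2.39% without and 3.55% with SB. Its normalised counts rose 1.70-fold, a log2FC of 0.77 (SE 0.06, DESeq2 adjusted p = 7.65e-41). The member at rank 2 had 20836, 18686 and 20060.4 CPM in Con and 28565, 28515 and 27587 CPM in SB. It showed the same separation, with a log2FC of 0.70 (SE 0.06, DESeq2 adjusted p = 4.18e-33). The member at rank 7 had 6250.3, 5609 and 6074 CPM in Con and 11289.9, 10656 and 10909.9 CPM in SB. Its log2FC of 1.07 (SE 0.06, DESeq2 adjusted p = 1.02e-69) was the largest among these 10, and it took rank 4 in SB.

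Ranks 6, 8 and 10 rose less. Rank 6 had 6858, 6257 and 6484 CPM in Con and 7411, 7351 and 7274 CPM in SB, rank 8 had 5500.4, 5961 and 5631 in Con and 6979, 6958 and 7218 in SB, and rank 10 had 4214, 4514 and 4187 in Con and 5151, 5084 and 5241 in SB. For each of them all SB samples were above all Con samples. Their log2FC values were 0.37, 0.51 and 0.46, and total-count scaling left them called higher at 0.17, 0.31 and 0.26 (DESeq2).

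The other 4 of the 10 highest members depended on the scaling. Rank 3 had 11389.9, 12275 and 11788 CPM in Con and 11751, 11698 and 12098 CPM in SB, so its share of the library overlapped between groups, and rank 5 had 6699, 7339.9 and 7201 CPM in Con and 6637, 6828 and 7375 CPM in SB. Both were called higher with median-of-ratios size factors (log2FC values 0.20 and 0.17, adjusted p = 0.00145 and 0.0246, DESeq2) but not with total-count scaling, where the values were 0.0038 and -0.027. The call of rank 5 was also lost when Con replicate 1, Con replicate 3, SB replicate 2 or SB replicate 3 was left out, with log2FC values of 0.13, 0.18, 0.19 and 0.12. Rank 4 had 10177, 10894 and 11741 CPM in Con and 9676, 9691 and 9556 CPM in SB, and rank 9 had 5080.4, 4447 and 4209.9 CPM in Con and 4215, 3976 and 3601 CPM in SB. Neither was called with median-of-ratios size factors (log2FC values 0.016 and -0.023, adjusted p = 0.864 and 0.832, DESeq2), and both were called lower with total-count scaling (-0.18 and -0.22).

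Large rises also occurred far down the list. The member with the smallest adjusted p-value was ENSOARG00020005049 at rank 179. It had 11135, 11265 and 11237 normalised counts in Con and 24674, 23184 and 23092 in SB. Its Con samples lay close together, and every SB sample was far above them. The log2FC was 1.08 (SE 0.06, DESeq2 adjusted p = 1.49e-81). ENSOARG00020003583 at rank 45 had 31868, 31921 and 31745 normalised counts in Con and 60066, 59723 and 61099.7 in SB. This member had the lowest CV within Con of all 200, 0.282%, which is under the 0.552% from counting alone. Its log2FC was 0.92 (SE 0.05, DESeq2 adjusted p = 1.47e-72). Rank 136 had 14531, 14965 and 14342 normalised counts in Con and 29023, 28709.6 and 31026 in SB, a log2FC of 1.02. Rank 149 had 13618, 13367 and 13079.7 in Con and 25883, 24838 and 26685 in SB, a log2FC of 0.95. Rank 195 had 9167, 11024 and 10872 in Con and 19138, 19333 and 20414 in SB, a log2FC of 0.92. In all 5 the groups were apart on the scale of CPM as well. On that scale all SB samples lay above all Con samples in 61 members and below them in 59, beside 13.6% and 43.3% of all tested identifiers. Only ranks 7, 136 and 179 passed a log2FC of 1, and with total-count scaling their values were 0.87, 0.82 and 0.88, so that 0 members passed it, where 2.13% of all tested identifiers did.

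The 5 largest falls were smaller than the 5 largest rises, although the median log2FC was 0.36 over the 109 members that rose and -0.36 over the 23 that fell. These 5, at ranks 17, 25, 51, 108 and 154, had log2FC values between -0.49 and -0.46. ENSOARG00020003663 at rank 108 had 18127, 17295 and 17257 normalised counts in Con and 12857, 12463 and 12796 in SB. Its lowest Con sample was well above its highest SB sample, and its log2FC was -0.47 (SE 0.05, DESeq2 adjusted p = 4.65e-16). ENSOARG00020020443 at rank 51 had 27919.7, 28058 and 30095 normalised counts in Con and 20955, 21354 and 19981 in SB, a log2FC of -0.47 (SE 0.06, DESeq2 adjusted p = 3.83e-14). Rank 17 was the highest-ranked member that fell with median-of-ratios size factors. It had 47922, 54213 and 54564 normalised counts in Con and 35621, 37295 and 38673 in SB, a log2FC of -0.49, and Con replicate 1 was its lowest Con sample. Rank 25 had 36381, 40569 and 40642 in Con and 27023, 28152 and 30353 in SB, with the same low Con replicate 1. Rank 154 had 11624, 13639 and 14241 in Con and 9634, 9611 and 9526 in SB. With total-count scaling the 5 values were between -0.69 and -0.65. That scaling moved log2FC values by about -0.20, so it could deepen these falls but not remove them.

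**Figure D3:**
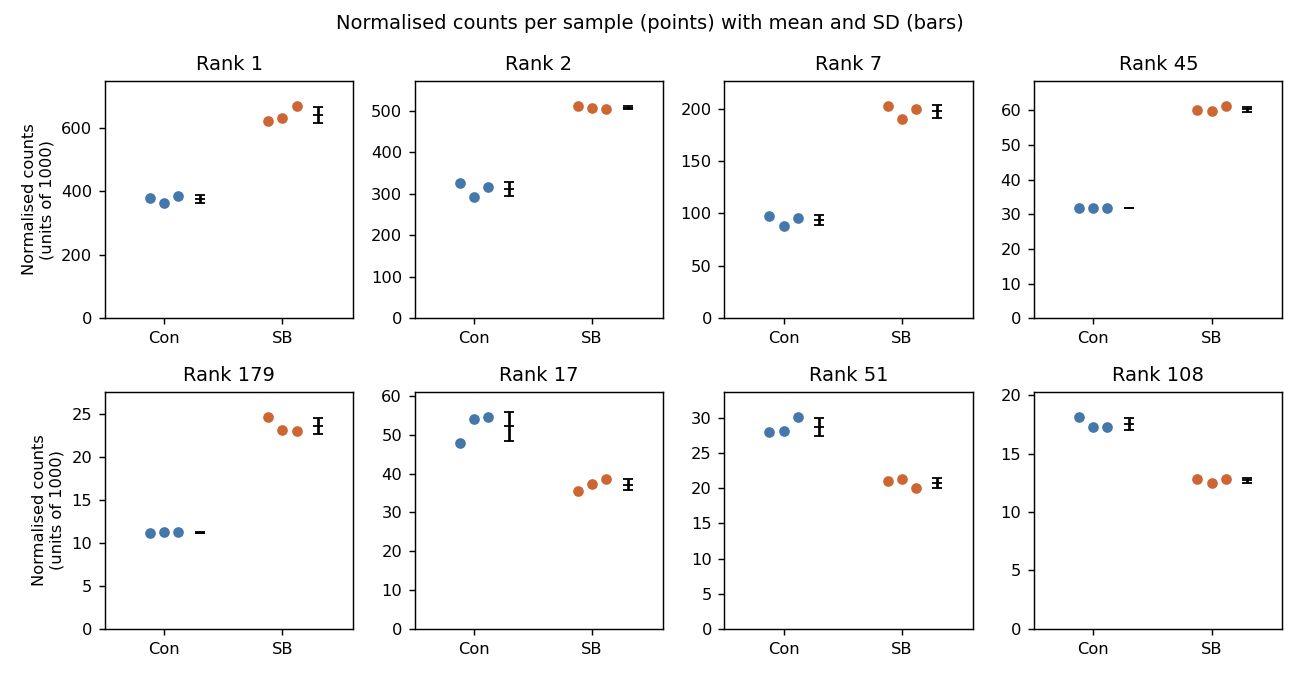
Normalised counts (axes in units of 1000) for 5 members that rose (ranks 1, 2, 7, 45 and 179) and 3 that fell (ranks 17, 51 and 108), with each sample as a point and the mean with SD of the 3 samples as a bar beside them. Each axis starts at 0, and in all 8 panels the 3 SB samples do not overlap the 3 Con samples.

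The order of the members was largely kept. Ranked by mean CPM in SB, 182 of the 200 members were again among the 200 highest Ensembl identifiers, and 183, 182 and 182 were in SB replicates 1, 2 and 3 taken singly. Among untreated samples, 189 to 195 identifiers were shared between the 200 highest of any 2 Con samples. In each of the 3 Con samples 188 members were among the 200 highest, and in each of the 3 SB samples 178 were. The choice of members favours the count of 188, since the same Con samples made it. Over the 200 members, Spearman's rho between mean CPM in Con and in SB was 0.901, a description across genes that are not independent and share libraries. Of the 10 highest, 9 stayed among the 10 highest, and ranks 1, 2, 3, 6 and 10 held the same rank. Rank 9 moved to 13, and the member at rank 14, with a log2FC of 0.76, moved to 9. The largest climb was that of rank 179, to 85 in SB, and the largest drop that of rank 191, to 302.

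**Figure D4:**
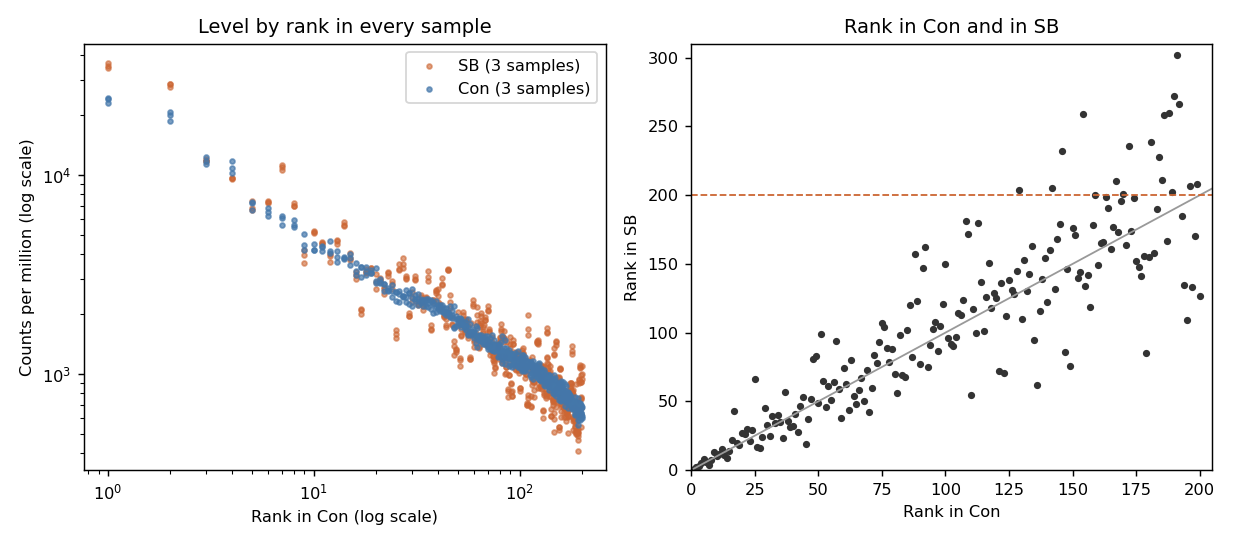
Left, CPM of the 200 members by rank in Con, both on log axes, with 1 point per sample. Right, rank in Con against rank in SB by mean CPM, with the line of equal rank and a dashed line at the limit of 200, above which the 18 members that left the 200 highest lie.

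Turnover took place mainly near the limit. Of the 18 members that left, 15 had ranks over 150 in Con, and 17 stayed within the 300 highest in SB. Of the 18 identifiers that replaced them, 15 had ranks from 201 to 300 in Con. The others were at ranks 314, 490 and 571. The identifier at rank 571 in Con had 260.1, 271 and 272 CPM in Con and 1122, 997 and 1209 in SB, and took rank 106. The identifier at rank 490 in Con had 321, 304 and 296 CPM in Con and 1054, 1056 and 1127 in SB, and took rank 115. The identifiers that entered were picked by their SB level, so their rises, with log2FC values from 0.31 to 2.25, are a description. Those of the members that left ran from -0.46 to 0.14.

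Members on either side of the limit differed little in level. Ranks 198, 199 and 200 had a mean of 651, 643 and 631 CPM in Con, and the identifiers at ranks 201, 202 and 203, which are not members, had 628, 621 and 620. The SD of ranks 198 to 200 was 42.8, 26.4 and 44.8 CPM (n = 3), so neighbours in this order do not differ beyond their spread. At the other end, rank 1 stood 37.9-fold above rank 200 in Con, and the median member had 1147 CPM. Among the 974 loci without an Ensembl identifier, which the choice left out, 1 reached the level of rank 200. It had 699 CPM in Con, and 179 Ensembl identifiers were above it.

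Levels of members varied little between samples of a group, but by more than counting error. The CV of normalised counts within SB, whose samples played no part in the choice, was 0.458% at the lowest, 4.45% at the median and 14.6% at the highest. Within Con it was 0.282%, 5.06% and 17.7%. The CV was under that expected from counting alone in 7 members in SB and 5 in Con. A CV over 10% within SB was found in 8 of the 200 members and in 41.9% of the other tested identifiers, in which counting error is also larger (median 5.58% from counting alone within SB over all tested). Low spread was not particular to members. At ranks 201 to 400 and 401 to 1000 the median CV was 3.61% and 3.87% within SB, and 5.31% and 5.21% within Con. The most variable member in SB, at rank 187, had 15936, 12937 and 12139.7 normalised counts, with replicate 1 the highest. In Con it was rank 82, with 18587, 17901 and 24451, where replicate 3 stood above the others. Spearman's rho between the CV within Con and within SB was 0.241 over the 200 members, each CV resting on 3 samples.

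**Figure D5:**
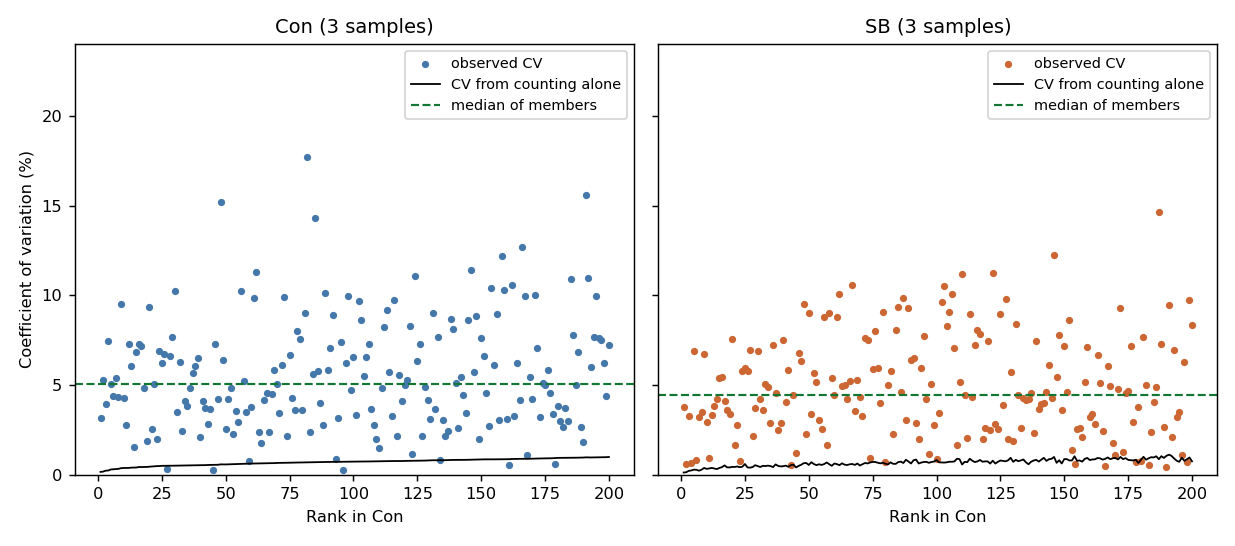
CV of normalised counts in percent for each member by rank in Con, within the 3 Con samples on the left and the 3 SB samples on the right. The black line is the CV from counting alone and the dashed line the median of the members, 5.06% in Con and 4.45% in SB, so that nearly all points lie above the line of counting error.

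Part of this spread was shared by many members at once. In 140 of the 200 members SB replicate 3 had the highest value among SB samples, and in 110 SB replicate 1 had the lowest. Among Con samples, replicate 1 had the lowest value in 114 members. The median log2 ratio of members to their Con mean was -0.04, 0.03 and 0.0045 in the Con samples and 0.16, 0.15 and 0.25 in the SB samples, all in normalised counts. Every SB sample lay above every Con sample on this measure. The Con values lie close to the Con mean by construction, and the Con samples also chose the members. In CPM the same medians were -0.04, 0.03 and 0.00069 in Con and -0.03, -0.03 and 0.03 in SB, and the groups overlapped (exact permutation p = 1). Over all tested identifiers, with a small constant added, the medians in normalised counts were -0.0071, -0.0056 and 0.0049 in the Con samples. In the SB samples they were -0.010, -0.012 and -0.013. Without SB replicate 3 the median CV of members within SB was 2.12%, beside 4.45% with it.

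The upward shift was not confined to the members. With median-of-ratios size factors, the median of the 200 identifiers at ranks 201 to 400 in Con was 0.17 (log2), and 106 were called higher and 27 lower (DESeq2), counts close to the 109 and 23 of the members. The share of counts held by ranks 201 to 400 was slightly lower in every SB sample than in every Con sample. Con averaged 9.24 ± 0.0271% and SB 9.14 ± 0.0178% (SD, n = 3, p = 0.1 by the exact permutation test, the smallest value it can give). The same Con samples set this band, a choice that can by itself affect the Con value. With median-of-ratios size factors the median was again 0.17 among the 600 identifiers at ranks 401 to 1000. It was 0.09 among the 2000 at ranks 1001 to 3000 and -0.07 among the 9485 tested Ensembl identifiers below. Within the members the median was 0.41, 0.23, 0.16 and 0.14 in ranks 1 to 10, 11 to 50, 51 to 100 and 101 to 200, with 80.0%, 62.5%, 50.0% and 51.0% called higher. Over single members the relation of rank to log2FC was weak (Spearman's rho -0.134 across 200 genes). The differences between these bands were not tested. As these are bulk samples, a change in the share of cells of a given type and a change in RNA per cell cannot be told apart.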

How the data were processed

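RNA of 3 Con and 3 SB samples was sequenced as paired-end reads of 150 bp. Per the labels and the study's methods, the authors filtered reads with CASAVA (version 1.8) and mapped them to the Rambouillet sheep assembly (Oar_rambouillet_v1.0) with HISAT2. The deposited table holds raw counts per gene identifier, not normalised by the authors. The counter, annotation release and strandedness are not given in the sources used here, so counts of near-identical or overlapping genes are uncertain. Columns were assigned by name to samples, and the titles of the control samples name SB. The supplement lists the names of the control columns under its other experiment, so the assignment of Con is less certain and Con may differ from SB by experiment as well.

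Identifiers reaching 10 counts in every sample of either group (13103) were tested with the DESeq2 Wald test (version 1.42.0, under R version 4.3.3), the tool of the study's methods, without covariates. Benjamini-Hochberg adjustment ran over all tested identifiers. The FPKM filter of the study needs gene lengths, which were not used here. CPM, shares and CV were computed in Python (version 3.11.15). Alternatives were edgeR (version 4.0.16, quasi-likelihood test), other scalings, no low-count filter, the replicate block, thinning to the smallest total, leaving out each sample, and other choices of members. The labels give no batch.

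The members, lists and tests were chosen with earlier results of these data known. Gene lists and cell type markers by symbol could not be applied. Named members are the 10 highest in Con, the 5 largest rises and 5 largest falls among those called, and the 3 on each side of rank 200. Identifiers are given for the 2 members of smallest adjusted p that rose and the 2 that fell. The number 5 and other members mentioned by rank were chosen after their values were seen.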

Additional observations from a re-analysis of the deposited data

How the results depend on the processing

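The counts of members called and their median moved with the scaling of the libraries. With total-count scaling 59 members were higher and 59 lower, and 0 passed a log2 fold change of 1. Of all tested identifiers 10.4% were then called higher, 36.6% lower and 2.13% past 1. The median of members was -0.0068. Scaling by the total of the identifiers outside the members, chosen after seeing the data, gave 74 higher, 42 lower, 0 past 1 and a median of 0.069, where 14.2%, 29.7% and 2.47% of all tested identifiers were called. The values follow from the scaling, as counts and test were otherwise the same. Ranks 4, 5 and 199 turned to -0.18, -0.027 and -0.070 with total-count scaling, and rank 4 to -0.11 with the other. With each sample left out in turn, rank 4 ranged from -0.035 (without Con replicate 1) to 0.069 and rank 9 from -0.081 to 0.056 (without Con replicate 1), and rank 9 was at 0.029 without SB replicate 3. None of ranks 4, 9 and 199 was called in the reported fit.

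With edgeR, TMM factors, no low-count filter, thinning or members chosen from 1 Con sample and compared with the other Con samples, members higher in SB numbered 100 to 111 and lower 19 to 24, beside 15.9% to 22.2% and 14.3% to 22.4% of all tested identifiers. When each sample was left out in turn, 101 to 109 were higher, 19 to 25 lower and 2 to 3 past a log2 fold change of 1, with 0 past -1 each time, beside 17.9% to 21.5%, 15.3% to 18.5%, 2.76% to 3.18% and 1.33% to 1.70% of all tested identifiers. Rank 136 was the member that no longer passed 1, at 0.99 without SB replicate 3. The median log2 fold change was then 0.17 to 0.22, the gain in share 3.01 to 3.39 percentage points, the members kept among the 200 highest of SB 181 to 183 and the median CV within SB 2.12% (without SB replicate 3) to 5.57% (without SB replicate 2). Without the most abundant identifier the gain in share was 2.09 percentage points.

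With another number of members the counts change by construction. With 100, 58 were higher, 10 lower, 1 past 1 and 0 past -1, and 87 stayed among the 100 highest. With 400, 215 were higher, 50 lower, 4 past 1 and 1 past -1, and 356 stayed among the 400 highest. In the same fit, 22.0% of all tested identifiers were called higher, 20.5% lower, 3.08% past 1 and 1.79% past -1. Of 23 members named, 18 kept their direction and their side of the adjusted p threshold under all 14 alternatives run for them.

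With the replicate number as a block, 115 members were higher and 24 lower in DESeq2, beside 19.5% and 16.3% of all tested identifiers, and 112 were higher in edgeR, beside 23.9%, and the block changed no call of a named member. For samples with the same number, deviations from the group mean correlated at 0.0587, -0.00317 and 0.0119 over tested identifiers, and not every sample correlated best with its own number, so the numbers were not taken to pair the samples. In all, 2 identifiers outside the members had no adjusted p-value.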
